A study of Mus musculus with 47 samples.

Results

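The Cyp3a genes encode cytochrome P450 enzymes of subfamily 3A, and 8 of them were followed here: Cyp3a11, Cyp3a13, Cyp3a16, Cyp3a25, Cyp3a41a, Cyp3a44, Cyp3a57 and Cyp3a59. They were chosen by name and by their mm9 gene spans, and were 8 of 22350 protein-coding genes on chromosomes 1 to 19 and X of the mouse annotation. H3K27me3, H3K27ac and H3K4me1 had been mapped by ChIP-seq, in male and female mouse livers taken at 7 weeks of age. Floxed control mice (Ezh2 f/f) made up the control male and control female groups, while the E1/E2-KO groups of each sex (KO male and KO female) carried Ezh1-/- and Ezh2 f/f with an albumin promoter-driven Cre. The floxed Ezh2 allele was shared by all 4 groups. Ezh1 was thus absent from all cells of E1/E2-KO liver, and the floxed Ezh2 allele was the target of a hepatocyte-directed Cre, which endothelial, Kupffer and stellate cells of E1/E2-KO liver do not express. The sample records hold 4 livers for each group and mark, except 3 livers for H3K4me1 in the E1/E2-KO female group, and the lists do not say which livers were pooled, so the number behind that list is uncertain.

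Cyp3a enzymes oxidise a wide range of drugs and steroids in hepatocytes, the main parenchymal cells of the liver. Their genes sit side by side as tandem duplicates, and several are expressed in a sex-biased way or are induced by the pregnane X receptor PXR. H3K27me3 is a repressive mark laid down by Ezh1 and Ezh2, the catalytic subunits of polycomb repressive complex 2. H3K27ac marks active promoters and enhancers, and H3K4me1 marks enhancers whether or not they are active.

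The values are positions. The authors concatenated the reads of the livers of a group and deposited 1 list of H3K27me3 regions, 1 list of H3K27ac peaks and 1 list of H3K4me1 peaks per group, 12 lists in all, with no score or read count. For this reason no value below has a replicate error, no difference between groups was tested, and the depth behind each list is unknown. A place outside the regions or peaks of a list was not called at that depth, which does not show that the mark was absent. List lengths differed: the H3K27ac list of control male liver held 29359 peaks and those of the other groups 49702 to 55930, so the presence of an H3K27ac peak in another list but not in control male liver went together with a longer list. Where lists were cut to equal length below, the widest intervals were kept, because no scores are given. Width does not measure strength or depth, and narrow calls are dropped first. The median H3K27ac width was 479 bp in control male, 445 bp in KO male, 484 bp in control female and 404 bp in KO female liver. A call lost in this way is not shown to be weak. Promoters (within 1 kb of the transcription start) of hepatocyte marker genes carried H3K27ac for 5 of 10 genes in control male liver and 8 of 10 in each other group, against 0 of 6 Kupffer cell and macrophage markers in every group, 1 or 2 of 5 stellate cell markers, 1 of 4 cholangiocyte markers and 1 to 4 of 6 endothelial markers. Over all genes the shares were 44.9% in control male, 51.8% in KO male, 50.8% in control female and 51.5% in KO female liver, so that the hepatocyte markers were near the share of all genes in control male liver. In whole liver, fewer cells of a type with a mark and less of the mark per cell cannot be told apart.

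On chromosome 5, 7 of the 8 genes lay in a cluster of 818721 bp (chr5:146106139-146924859 in mm9), in the order Cyp3a57, Cyp3a16, Cyp3a41a, Cyp3a44, Cyp3a11, Cyp3a25 and Cyp3a59, and Cyp3a13 lay 7.74 Mb before it (chr5:138334161-138362847). Cyp3a57 and Cyp3a59 were on the plus strand and the other 6 on the minus strand. Coding sequences fell into groups by identity. Cyp3a16, Cyp3a41a, Cyp3a44 and Cyp3a11 shared 92.5% to 95.8% of coding positions with each other, and Cyp3a57, Cyp3a25 and Cyp3a59 shared 93.9% to 97.5%. Between these groups identity was 75.1% to 76.8%. Cyp3a13 shared 75.9% to 77.3% with each of the other members.

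The promoters followed the same grouping. All 8 members had an entry among the RefSeq promoters (assembly GRCm38.p6), and the 250 bases before each annotated start occurred exactly once on chromosome 5 of mm9, whose coordinates are given here. The promoters below are shown because they are those of the 2 genes with H3K27me3 in control liver (Cyp3a57 and Cyp3a16), of Cyp3a41a and Cyp3a44, close copies of Cyp3a16 that had none, and of Cyp3a11, which had H3K27ac peaks in every group. Each is written 5′ to 3′ along the gene's strand, and capitals mark letters that match one of the motifs searched.
Cyp3a16 promoter, chr5:146230593-146230842, minus strand: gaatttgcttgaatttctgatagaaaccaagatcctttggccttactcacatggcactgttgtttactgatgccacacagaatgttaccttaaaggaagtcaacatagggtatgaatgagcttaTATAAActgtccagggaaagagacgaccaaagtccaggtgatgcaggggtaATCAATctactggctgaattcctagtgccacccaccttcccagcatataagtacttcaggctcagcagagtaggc
Cyp3a41a promoter, chr5:146531713-146531962, minus strand: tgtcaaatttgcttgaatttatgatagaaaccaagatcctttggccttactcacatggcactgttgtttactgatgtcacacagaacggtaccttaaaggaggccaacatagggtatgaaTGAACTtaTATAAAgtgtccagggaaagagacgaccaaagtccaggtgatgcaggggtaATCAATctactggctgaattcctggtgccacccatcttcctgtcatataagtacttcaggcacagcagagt
Cyp3a44 promoter, chr5:146617451-146617700, minus strand: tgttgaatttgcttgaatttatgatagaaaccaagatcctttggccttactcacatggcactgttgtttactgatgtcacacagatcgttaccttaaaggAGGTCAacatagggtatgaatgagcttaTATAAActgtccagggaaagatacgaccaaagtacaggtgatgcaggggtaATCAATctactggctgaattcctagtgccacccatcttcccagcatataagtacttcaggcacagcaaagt
Cyp3a11 promoter, chr5:146691431-146691680, minus strand: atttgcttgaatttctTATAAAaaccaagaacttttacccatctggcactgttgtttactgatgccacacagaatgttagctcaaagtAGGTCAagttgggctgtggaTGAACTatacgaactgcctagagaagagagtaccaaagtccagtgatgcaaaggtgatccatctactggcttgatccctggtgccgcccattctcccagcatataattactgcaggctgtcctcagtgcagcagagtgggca
Cyp3a57 promoter, chr5:146105888-146106137, plus strand: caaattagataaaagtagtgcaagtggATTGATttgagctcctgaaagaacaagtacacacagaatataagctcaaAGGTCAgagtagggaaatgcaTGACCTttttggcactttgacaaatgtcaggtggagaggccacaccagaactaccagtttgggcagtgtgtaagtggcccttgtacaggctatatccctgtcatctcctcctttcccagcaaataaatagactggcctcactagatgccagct

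The promoters of Cyp3a16 and Cyp3a44 were identical at 92.9% of aligned positions, those of Cyp3a16 and Cyp3a41a at 91.3%, and those of Cyp3a16 and Cyp3a11 at 76.6%. Cyp3a57 shared 88.9% of positions with Cyp3a25 and 90.1% with Cyp3a59, but 55.4% with Cyp3a16. Motifs were searched on both strands of the 250 bases. TATAAA, the letters of a TATA box, were found in 4 of 8 members (Cyp3a16, Cyp3a41a, Cyp3a44 and Cyp3a11) and in 12.4% of 32851 promoter windows of the same length. They lay 126 to 121 bases before the start of Cyp3a16, 122 to 117 before those of Cyp3a41a and Cyp3a44 and 234 to 229 before that of Cyp3a11, farther from the annotated start than a TATA box usually lies. ATTGAT, the core bound by HNF6 and CUX factors, was found in Cyp3a57, Cyp3a16, Cyp3a41a and Cyp3a44, again 4 of 8, against 6.72% of windows, and lay 75 to 70 bases before the start of Cyp3a16 and 71 to 66 bases before those of Cyp3a41a and Cyp3a44. These letters are not in the windows of Cyp3a11, Cyp3a25, Cyp3a59 or Cyp3a13. AGGTCA, a nuclear receptor half-site, was found in 5 of 8 members, with 2 matches each in Cyp3a57, Cyp3a25 and Cyp3a59 and 1 each in Cyp3a44 and Cyp3a11, against 14.0% of windows. AGTTCA, the other half-site, was found in Cyp3a41a and Cyp3a11 and in 11.8% of windows. No member held TTCNNNGAA (STAT5, 7.02% of windows), either of the everted repeats of half-sites spaced by 6 bases that PXR binds (0% and 0.00609%), or ATTGCGCAA (C/EBP, 0.0487%). The everted repeats contain the half-site letters. Members of a group share most of their promoter sequence, so their matches are not independent of each other.

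How far reads can be placed among such copies differed between the genes. The reads were 50 nt long, and the share of 50-nt sequences that occur once in mm9 on either strand was 99.0% in Cyp3a13, 96.0% in Cyp3a57, 90.9% in Cyp3a11, 85.7% in Cyp3a25, 85.0% in Cyp3a59, 79.0% in Cyp3a16, 68.5% in Cyp3a44 and 19.1% in Cyp3a41a. Cyp3a41a stood apart. Of its 50-nt sequences 78.9% were also present in Cyp3a41b (chr5:146319533-146345599), a near copy that is not one of the 8 genes and whose coding sequence was 99.9% identical. Cyp3a25 had 12.8% of its sequences in common with Cyp3a59, and the other members at most 12.2% with their closest copy. Paired reads can be placed somewhat better than single 50-nt sequences, and how the authors treated reads with several positions is not given in the sources used here. The absence of peaks over Cyp3a41a and Cyp3a41b therefore cannot be read as absence of the marks.

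**Figure D1:**
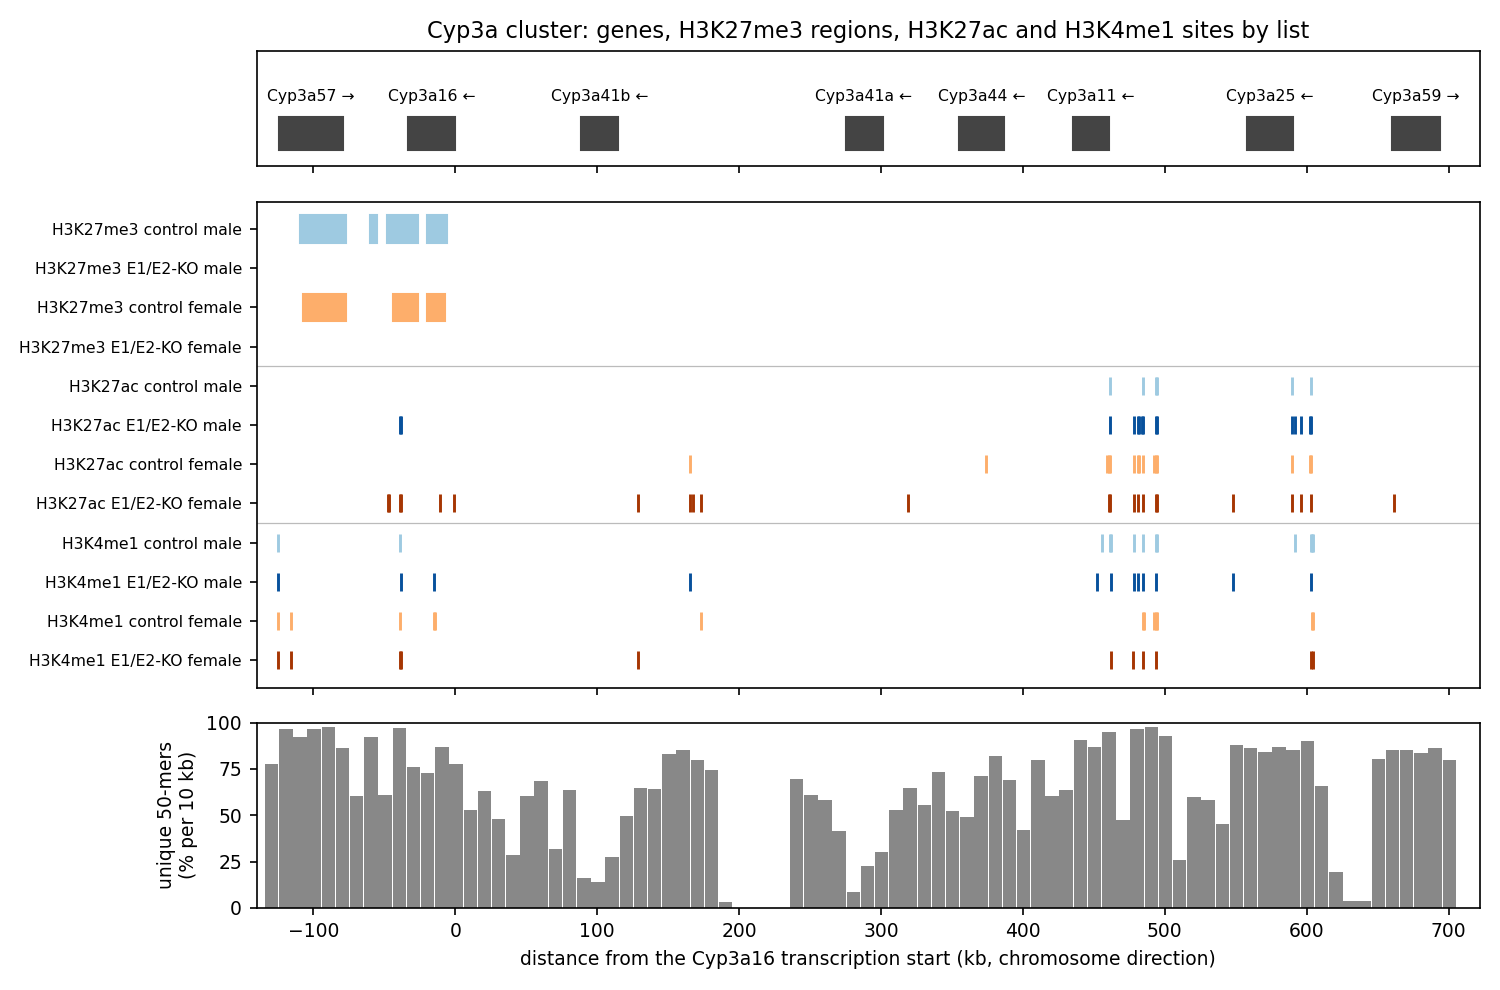
Genes of the Cyp3a cluster (top, arrows give the strand), H3K27me3 regions as bars and H3K27ac and H3K4me1 sites as ticks in each of the 12 lists (middle), and the percent of 50-nt sequences that occur once in mm9 in each 10 kb window (bottom), against distance from the Cyp3a16 start in kb. H3K27me3 regions lie between the starts of Cyp3a57 and Cyp3a16 in both control lists, no H3K27ac or H3K4me1 peak falls in any of the 20 windows under 50% unique, and the windows without a bar in the lower plot, between Cyp3a41b and Cyp3a41a, fall in 50 kb of unknown sequence.

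H3K27me3 was called over Cyp3a57 and Cyp3a16 in control liver of both sexes and over no gene of the cluster in KO liver. Over Cyp3a13 the reverse was seen, with no region in either control list and the whole gene inside a region in both KO lists. The other 5 genes had no H3K27me3 region in any list. Counted by group, 2 of 8 genes overlapped a region in control male liver, 1 in KO male, 2 in control female and 1 in KO female, where the share over all protein-coding genes was 42.4%, 47.1%, 42.7% and 40.8%. The median coverage of a gene span was 0% in each group, both over the 8 genes and over all protein-coding genes.

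Cyp3a57 was covered over 66.7% of its 45243 bp in control male liver and 61.4% in control female liver, and over 0% in KO liver of each sex. Cyp3a16 was covered over 64.7% of its 33415 bp in male and 61.1% in female control liver, and over 0% in both KO lists. A fall of 25 percentage points or more from control to KO was thus seen for 2 of 8 members in males and for the same 2 genes in females, against 6.08% of all genes in males and 7.59% in females. Of all genes 2.78% had such a fall in both sexes. Between the sexes of control liver the difference was small for both genes, at 30181 bp covered in male and 27781 bp in female control liver for Cyp3a57 and 21623 and 20423 bp for Cyp3a16. No member differed by 25 points between the sexes in either genotype, against 6.38% of genes lower and 5.28% higher in control female than in control male liver, and 11.1% lower and 4.77% higher in KO female than in KO male liver.

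The regions over Cyp3a57 and Cyp3a16 did not reach the promoter of either gene. In control male liver a region of 32.4 kb (chr5:146121201-146153600) began 15062 bp downstream of the Cyp3a57 start and ran past the end of the gene. In control female liver it began 17462 bp downstream of the start and ended at the same window (chr5:146123601-146153600). The 5′ part of Cyp3a57 and its promoter thus lay outside the region in both lists. Cyp3a16 was crossed by a pair of regions in each control list. One entered from beyond the 3′ end and covered 7223 bp of the gene in both sexes (chr5:146182401-146204400, 22 kb, in control male and chr5:146186401-146204400, 18 kb, in control female), and the other lay wholly within the gene (chr5:146210401-146224800, 14.4 kb, and chr5:146210401-146223600, 13.2 kb). The latter stopped 5792 bp before the Cyp3a16 start in control male and 6992 bp before it in control female liver, so this promoter, too, was outside. Inner edges at 146204400 and 146210401 were shared by the sexes to the base. SICER places edges on a 400 bp grid, so edges can differ only in steps of 400 bp. Each outer edge lay farther out in control male liver or at the same window.

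A region of 4.80 kb between the 2 genes (chr5:146170801-146175600) was present in control male liver alone. Together the regions filled 8.99% of the cluster in male and 7.48% in female control liver, 73600 and 61200 bp, and all of it lay between the starts of Cyp3a57 and Cyp3a16, where they filled 59.1% and 49.2%. In that stretch 84.6% of 50-nt sequences were unique, and in the remaining 694267 bp of the cluster 60.5%. The KO lists had no region in the cluster, with the nearest 262 kb before it and 198 kb after it in KO male and 263 kb and 218 kb in KO female liver. In the control lists the nearest regions outside the cluster lay at like distances, 262 or 266 kb before and 198 kb after it. By width, the Cyp3a57 region was among the widest 46.5% of the control male list and 37.6% of the control female list, wider than the median region of each list (30400 and 23600 bp). The Cyp3a16 regions were narrower than the median, within the widest 68.1% to 89.3%.

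**Figure D2:**
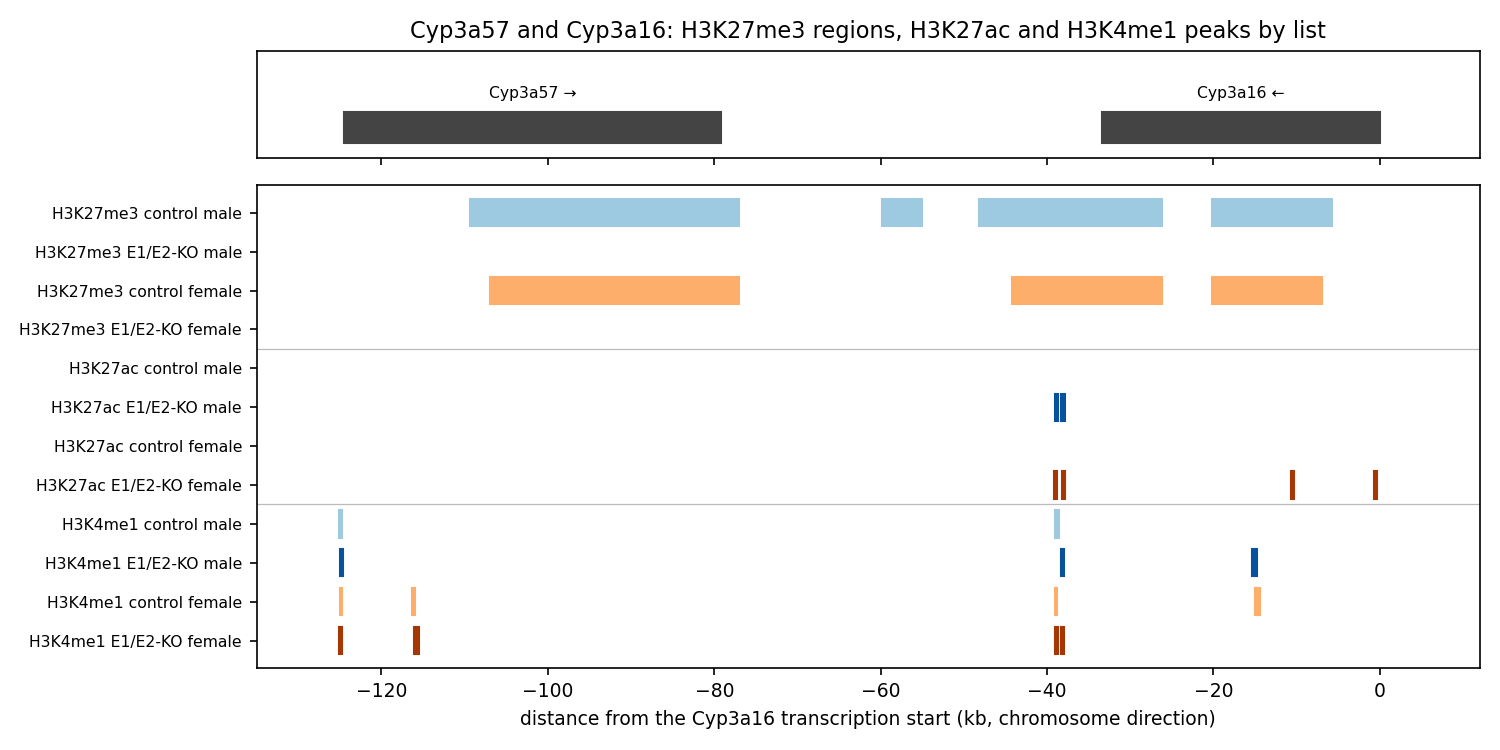
H3K27me3 regions and the H3K27ac and H3K4me1 peaks within 10 kb of Cyp3a57 or Cyp3a16 in each list, against distance from the Cyp3a16 start in kb (regions to scale, the narrowest peaks widened to be visible). Control lists have H3K27me3 and no H3K27ac here, and both KO lists have 2 H3K27ac peaks just beyond the 3′ end of Cyp3a16.

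By the pattern of coverage over the 4 lists, the gene nearest to Cyp3a16 among 16513 protein-coding genes of 5 kb or more was its neighbour Cyp3a57, at a Euclidean distance of 2.03 percentage points. Next came Ehbp1l1 on chromosome 19, at 6.50 points, with 65.5% and 67.6% in control liver of males and females, and 1700057K13Rik on chromosome 1, at 7.56 points, with 66.3% and 53.7%. All 3 were at 0% in both KO lists. This likeness was measured over 4 lists and is a description.

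Activating marks at Cyp3a16 differed between genotypes as called. No H3K27ac peak lay within 10 kb of the gene in control male or control female liver, 2 did in KO male and 4 in KO female liver. Genes with H3K27ac within 10 kb in both KO lists and in neither control list made up 1.71% of all genes, and Cyp3a16 was the 1 member with that pattern. With the widest 29359 peaks taken from each list, to match the length of the control male list, 0 peaks were left near Cyp3a16 in KO male liver and 1 in KO female liver, so the KO male call was lost at equal list length.

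A pair of sites beyond the 3′ end of Cyp3a16 carried the peaks shared by the sexes. In KO male liver they were chr5:146191563-146191903 and chr5:146192310-146192727, and in KO female liver chr5:146191409-146191842 and chr5:146192367-146192665. All 4 peaks lay inside the H3K27me3 region that entered Cyp3a16 from this side in both control lists, and all of their 50-nt sequences were unique. The bases common to both sexes are printed on the plus strand of mm9, as the sequences in which both KO lists had H3K27ac and neither control list did; capitals mark motif letters as above.
Site 1, chr5:146191563-146191842, 280 bp: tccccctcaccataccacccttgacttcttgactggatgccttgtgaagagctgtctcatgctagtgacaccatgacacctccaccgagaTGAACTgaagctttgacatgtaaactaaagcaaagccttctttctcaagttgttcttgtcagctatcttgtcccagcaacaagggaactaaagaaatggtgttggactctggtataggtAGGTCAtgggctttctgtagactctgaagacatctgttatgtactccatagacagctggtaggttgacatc
Site 2, chr5:146192367-146192665, 299 bp: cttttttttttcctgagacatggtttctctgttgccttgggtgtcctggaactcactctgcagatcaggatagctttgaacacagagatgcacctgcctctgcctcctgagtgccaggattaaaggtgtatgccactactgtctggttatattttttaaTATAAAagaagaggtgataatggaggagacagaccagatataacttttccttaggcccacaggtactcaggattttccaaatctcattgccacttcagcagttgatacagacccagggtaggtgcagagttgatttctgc

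Site 1 lay 5335 bp and site 2 lay 4512 bp beyond the 3′ end of Cyp3a16. H3K4me1 overlapped site 1 in control male, control female and KO female liver, and site 2 in KO male and KO female liver. Every group thus had H3K4me1 at one or both sites, while H3K27ac was called there in KO liver alone. Site 1 held 1 match each to AGTTCA and AGGTCA, which were found in 16.8% and 18.5% of windows of 280 bp centred on the 3545 H3K27ac peaks of chromosome 5 in KO male liver. Site 2 held 1 match to TATAAA, found in 11.0% of such windows of 299 bp. Neither held the other letters searched.

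Both further peaks of KO female liver were in that list alone. One lay in an intron 10520 bp downstream of the Cyp3a16 start (chr5:146219869-146220072), inside the H3K27me3 region of both control lists. The other lay in an intron 556 bp downstream of the start (chr5:146229838-146230036), within the 1 kb counted as promoter. These peaks were 204 and 199 bp wide, and 93.8% and 95.7% of the peaks of that list were as wide or wider. H3K4me1 within Cyp3a16 was found 14746 to 15375 bp downstream of the start in KO male liver and, as a pair of peaks at 14459 to 15042 bp, in control female liver.

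Cyp3a57, the other gene with H3K27me3 in control liver, had no H3K27ac peak within 10 kb in any list. Its nearest H3K27ac peak lay 28099 bp from the start in control male, 27136 bp in KO male, 63949 bp in control female and 27277 bp in KO female liver. Its promoter carried H3K4me1 in all 4 lists, from 238 to 327 bp before the start at the nearest edge. With 51417 peaks per list the KO male call was lost. A second H3K4me1 peak, in an intron 8120 bp downstream of the start in control female and 8315 bp in KO female liver, was called in both female lists and in neither male list. Of the 2 genes that lost their H3K27me3 calls, Cyp3a16 had new H3K27ac calls in the full KO lists and Cyp3a57 had none. At equal list length Cyp3a16 had 0 such peaks in KO male and 1 in KO female liver.

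**Figure D3:**
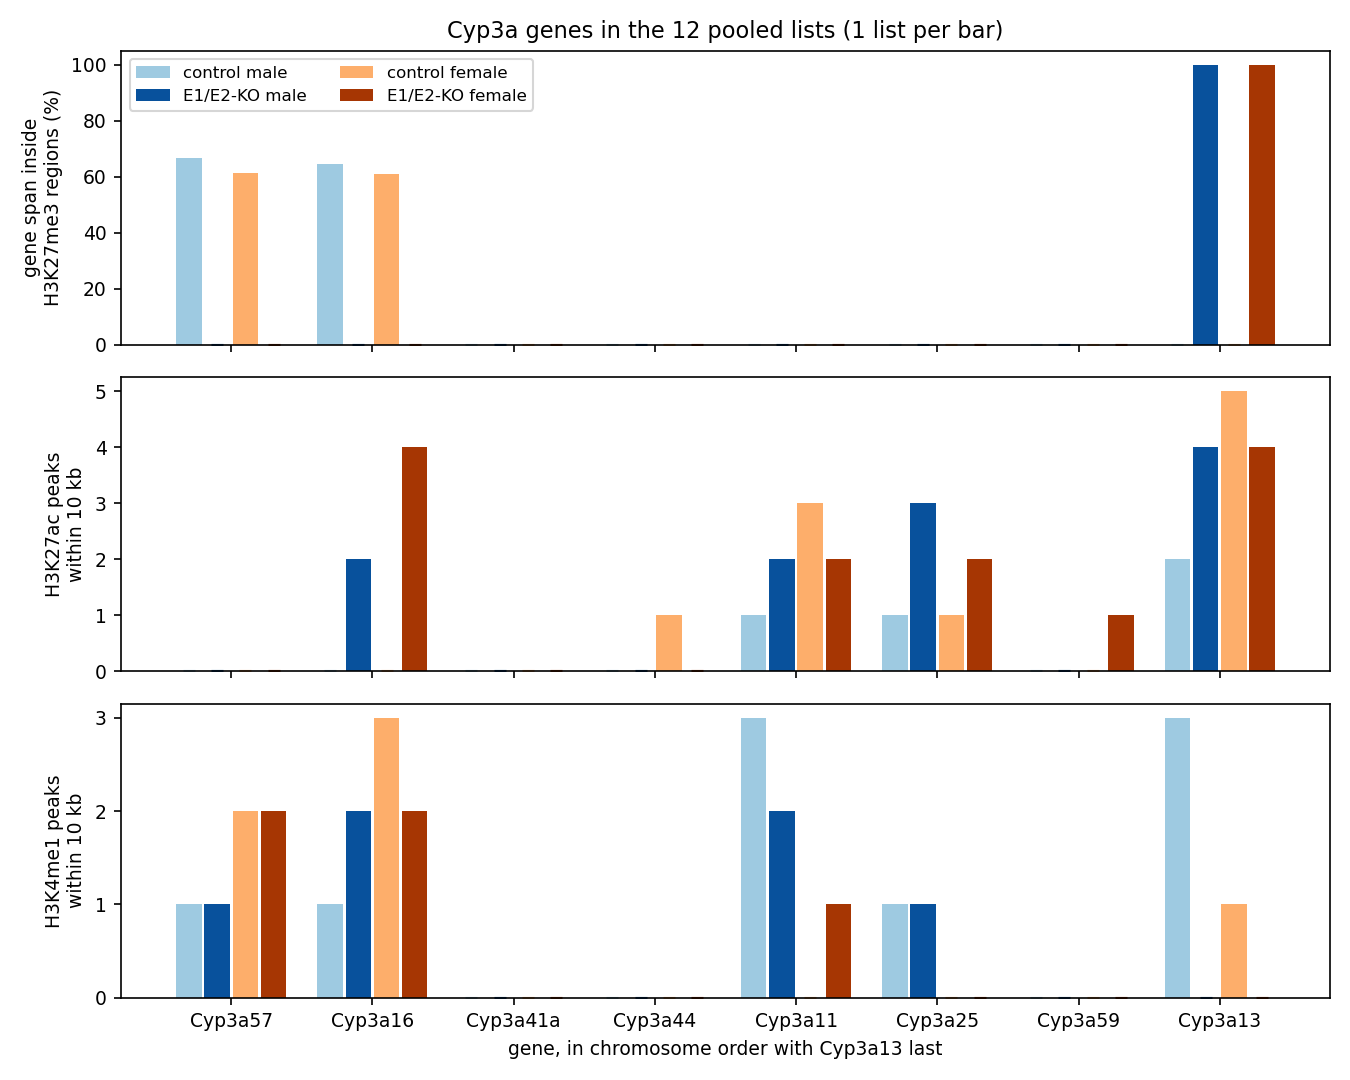
Percent of each gene span inside H3K27me3 regions (top), and numbers of H3K27ac (middle) and H3K4me1 peaks (bottom) within 10 kb of the span, for the 8 genes in each group, with 1 pooled list per bar, so that there are no error bars. Cyp3a57 and Cyp3a16 are covered at 61.1% to 66.7% in the control lists only, and Cyp3a13 at 100% in the KO lists only.

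Cyp3a11, a well-known target of PXR, had no H3K27me3 region and had H3K27ac at its promoter in every group. The peak nearest to its start lay at 999 bp in control male, 278 bp in KO male, 38 bp in control female and 378 bp in KO female liver. Control male liver had the narrowest peak here, 252 bp wide, and control female liver had 3 peaks within 10 kb, among them one of 1060 bp just upstream of the start and one of 773 bp over the first part of the gene. H3K4me1 was called at the promoter in control male, KO male and KO female liver, whereas in control female liver the nearest H3K4me1 peak lay 23862 bp away. The 35 kb upstream of Cyp3a11 held 4, 10, 8 and 6 H3K27ac peaks and 6, 5, 5 and 4 H3K4me1 peaks in control male, KO male, control female and KO female liver. Besides the promoter site (chr5:146691708-146692807), the H3K27ac sites of this stretch at chr5:146715220-146715727, chr5:146723713-146724542 and chr5:146724767-146725425 were present in all 4 lists. These 3 are 23790 to 33995 bp from the Cyp3a11 start, beyond 10 kb of any member.

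Cyp3a25 had an H3K27ac peak in an intron near its start in all 4 lists, at 1011 bp in control male, 869 bp in KO male, 863 bp in control female and 967 bp in KO female liver. The control male peak lay 11 bp outside the 1 kb limit, so that 3 lists counted it as a promoter peak. An H3K27ac site from 5283 to 6025 bp upstream (chr5:146826477-146827219) was called in both KO lists only, and a group of H3K27ac and H3K4me1 sites 11238 to 14504 bp upstream included an H3K27ac site called in all 4 lists (chr5:146833044-146834303). Cyp3a59 had no activating peak within 10 kb except an H3K27ac peak 891 bp downstream of its start in KO female liver (chr5:146891725-146892006). With the widest 29359 peaks per list 0 H3K27ac peaks were left within 10 kb of Cyp3a25 and of Cyp3a59 in KO female liver. The intron peak of Cyp3a25, called in all 4 lists and 334 bp wide in KO female liver, was among those dropped.

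Cyp3a41a and Cyp3a44, both expressed mainly in female liver, had almost no peaks. Within 10 kb of Cyp3a41a no list had an H3K27ac or H3K4me1 peak, nor had any list one within 10 kb of Cyp3a41b. At Cyp3a44 the control female list had 1 H3K27ac peak, in an intron 12827 bp downstream of the start (chr5:146604323-146604623), and the other lists had none of either mark. This peak was not among the widest 29359 of its list. Within 1 kb of the start, 18.9% of 50-nt sequences were unique at Cyp3a41a, against 88.4% at Cyp3a44 and 75.9% at Cyp3a16. Along the cluster 0 of the 20 windows of 10 kb under 50% unique held an activating peak, against 20 of the 60 windows at or above 50%.

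**Figure D4:**
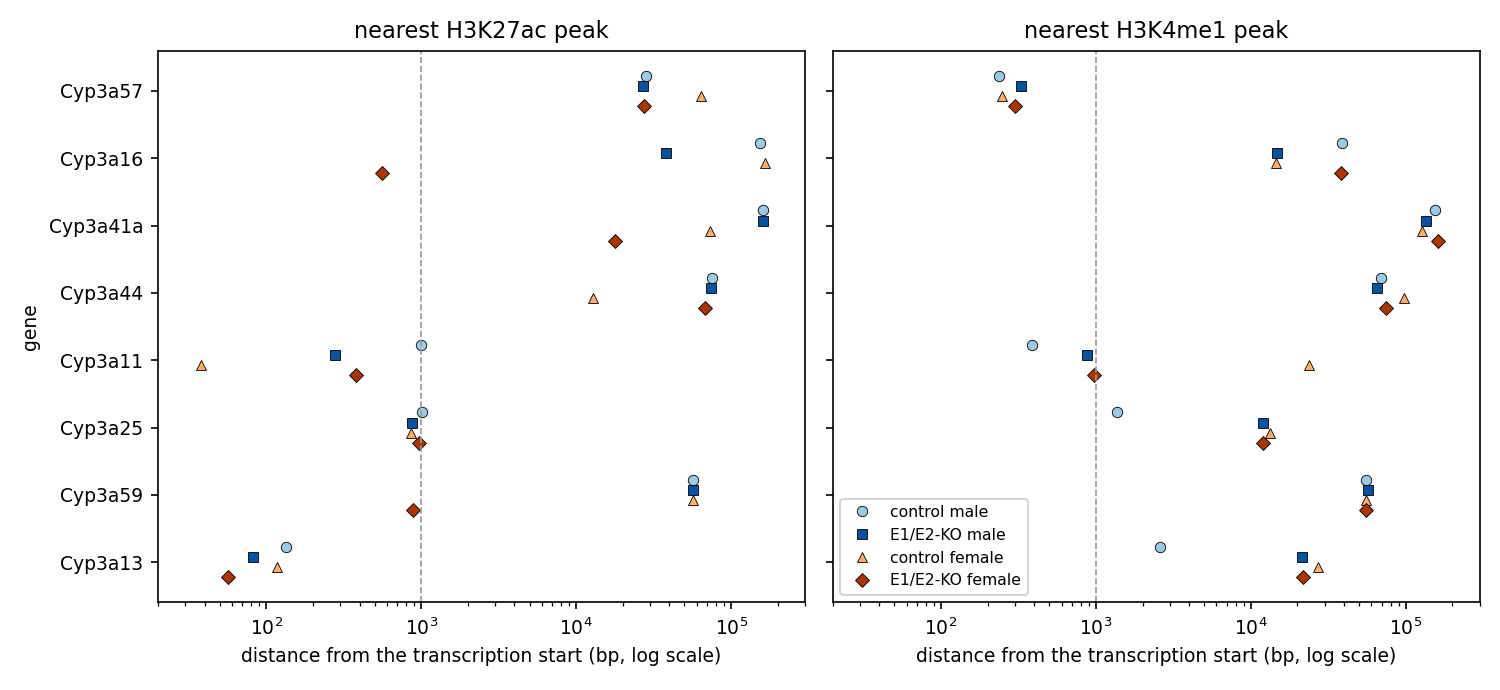
Distance in bp, on a log axis, from the transcription start of each gene to the nearest H3K27ac (left) and H3K4me1 peak (right) in each list, with a dashed line at 1 kb. Cyp3a13 and Cyp3a11 have H3K27ac within 1 kb in all 4 lists, Cyp3a57 has H3K4me1 within 1 kb in all 4 lists, and Cyp3a16 is within 1 kb of an H3K27ac peak in KO female liver alone.

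Cyp3a13, outside the cluster, was the 1 member with H3K27me3 in KO liver. Its whole span of 28687 bp lay inside an H3K27me3 region in KO male (chr5:138324801-138368400, 43.6 kb) and KO female liver (chr5:138328001-138373200, 45.2 kb), and 0% of it in control liver of males and females. A rise of 25 points or more was found for 1 of 8 members in each sex, against 9.87% of all genes in males and 6.30% in females, and 3.32% of all genes had it in both sexes. The regions passed the start of Cyp3a13 by 5553 bp in KO male and 10353 bp in KO female liver and so included the promoter. Gjc3, which encodes a gap junction protein, is the next gene beyond the start, and was covered at 100% in control male and in both KO lists and at 0% in control female liver. Azgp1, farther on, was inside a region for most of its span in KO male liver and at 0% in the other lists, and the other 6 protein-coding genes within 100 kb of Cyp3a13 were at 0% in all 4 lists.

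H3K27ac at the Cyp3a13 promoter was nonetheless called in every group. Peaks from 57 to 868 bp downstream and from 293 to 700 bp upstream of the start were present in all 4 lists, so both marks were called over the same promoter in KO liver. H3K4me1 within 10 kb of Cyp3a13 was called at 3 sites in male and 1 in female control liver and at 0 in both KO lists. With 51417 peaks per list, the length of the shortest H3K4me1 list, 1 site was left in each control list. The 3 sites of control male liver, all inside the gene, had no overlapping H3K4me1 peak in any other list. Of the hepatocyte marker genes 0 of 10 overlapped an H3K27me3 region in each control list and 4 of 10 in each KO list, where the share of all genes was 42.4% and 42.7% in the control lists and 47.1% and 40.8% in the KO lists (males first). A rise of 25 points or more was found for 4 of the 10 in males and 3 in females, against 9.87% and 6.30% of all genes. Ahsg went from 0% to 100% in males, and stayed at 0% in females. Apoa1 went from 0% to 100% in males and 50.3% in females, Hnf4a to 89.1% and 71.0% and Tat to 100% and 65.8%, and Alb reached 2.73% in females. Apob, Cps1, F2, Serpina1a and Ttr were at 0% in all 4 lists. Of 6 endothelial markers 3 fell by 25 points or more in each sex and 0 rose, where 6.08% of all genes fell in males and 7.59% in females. Pecam1 went from 100% to 0% in males and from 87.6% to 0% in females. Stab2 went from 87.3% and 64.2% to 0%, and Cdh5 from 100% to 26.3% in males and from 61.8% to 10.4% in females. Of the 15 markers of Kupffer cells, stellate cells and cholangiocytes, 0 fell or rose by 25 points in males, against 6.08% and 9.87% of all genes, and in females 2 fell and 1 rose, against 7.59% and 6.30%. The part of non-hepatocyte chromatin in the Cyp3a13 regions was not tested.

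**Figure D5:**
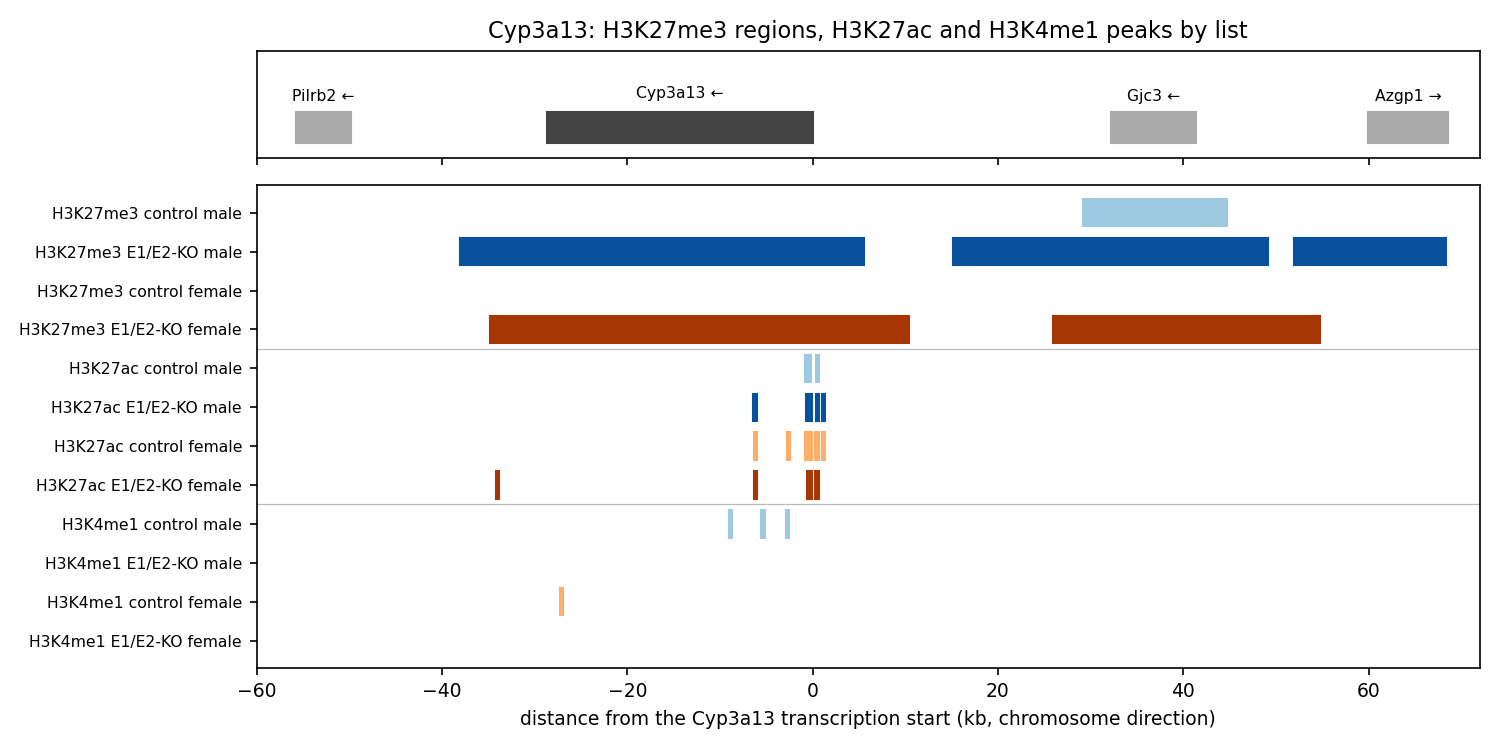
H3K27me3 regions and H3K27ac and H3K4me1 peaks within 10 kb of Cyp3a13 in each list, against distance from the Cyp3a13 start in kb, with neighbouring genes in grey (regions to scale, the narrowest peaks widened to be visible). Both KO lists have a region over the whole gene, both control lists have none, and H3K27ac at the start is present in all 4 lists.

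Over all members, H3K27ac peaks within 10 kb numbered 4 in control male, 11 in KO male, 10 in control female and 13 in KO female liver, near 3, 4, 4 and 5 of the 8 genes. Among all genes 60.4%, 69.0%, 67.1% and 68.4% had such a peak. With 29359 peaks per list the numbers were 4, 5, 6 and 4, so that the difference in males shrank to 1 peak and in females KO liver had fewer peaks than control. H3K27ac within 10 kb that had no overlapping peak in the control list of the same sex was found for 4 of 8 members in males (Cyp3a16, Cyp3a11, Cyp3a25 and Cyp3a13), against 47.5% of all genes, and for 4 of 8 in females (Cyp3a16, Cyp3a25, Cyp3a59 and Cyp3a13), against 28.8%. The share in males was near that of all genes. Peaks called in control and missing in KO liver were found for 0 of 8 members in males and 3 of 8 in females, against 9.54% and 31.8% of all genes. In control female against control male liver 3 members had a peak that the other list lacked, against 43.8%, and 0 members the converse, against 9.57%.

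H3K4me1 peaks within 10 kb numbered 9, 6, 6 and 5 in control male, KO male, control female and KO female liver, near 5, 4, 3 and 3 of the 8 genes, against 74.4%, 75.4%, 71.4% and 71.0% of all genes. The lists of this mark held 69797, 67913, 54798 and 51417 peaks, in the same order. With 51417 peaks per list the numbers were 4, 2, 6 and 5, so that control male liver no longer had the most. H3K4me1 without an overlapping peak in the same-sex control list was found for 3 members in males and 2 in females, against 44.6% and 39.8% of all genes, and the converse for 4 and 2, against 45.7% and 46.4%. When the peaks of the 4 lists were merged over the cluster and Cyp3a13 with 10 kb on each side, 36 H3K27ac sites and 30 H3K4me1 sites were obtained. Of the H3K27ac sites 8 were in all 4 lists, 3 in both KO lists only, 0 in both control lists only and 11 in the KO female list only. Over the whole lists the corresponding shares of merged sites were 30.1%, 5.76%, 0.618% and 9.88%. Those 3 sites were sites 1 and 2 beyond Cyp3a16 and the site upstream of Cyp3a25, whose peaks in the KO lists overlapped only at their edges. Of the H3K4me1 sites 3 were in all 4 lists, 1 in both KO lists only and 2 in both control lists only, where 28.4%, 3.11% and 3.58% of all merged sites had these patterns.

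Promoters with H3K27ac numbered 2 of 8 in control male, 3 in KO male, 3 in control female and 5 in KO female liver, against 44.9%, 51.8%, 50.8% and 51.5% of all genes. Cyp3a11 and Cyp3a13 were in every list, Cyp3a25 in all but control male, and Cyp3a16 and Cyp3a59 in KO female liver alone. At equal list length the numbers were 2, 3, 3 and 2, so that KO female liver no longer had more than control female. Promoters with H3K4me1 numbered 2, 2, 1 and 2, against 47.1%, 45.8%, 39.8% and 36.2%, and were those of Cyp3a57 and, except in control female liver, Cyp3a11.

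Other drug-metabolising gene families are given by their overlap with H3K27me3 regions, against 42.4% of all genes in control male, 47.1% in KO male, 42.7% in control female and 40.8% in KO female liver. Of 6 Cyp4a genes, fatty acid hydroxylases, 0 overlapped a region in any list. Of 9 Cyp2a and Cyp2b genes 5 overlapped a region in male and 2 in female control liver, and 0 in both KO lists. The 5 genes, all of subfamily 2b, are named with their values known. Cyp2b19 was covered at 100% in both control lists and Cyp2b10 at 100% in male and 37.2% in female control liver, and both at 0% in the KO lists, as Cyp3a57 and Cyp3a16 were. Cyp2b23, Cyp2b13 and Cyp2b9 were covered at 79.2%, 50.8% and 37.8% in control male liver and at 0% in control female liver. Of 6 Fmo genes, flavin monooxygenases, 3, 1, 1 and 1 overlapped a region in control male, KO male, control female and KO female liver. Among 10 matched genes of a list of 11 partners and regulators of Cyp3a enzymes, 1 overlapped a region in each control list, 7 in KO male and 3 in KO female liver. Nr1i2, which encodes PXR, was at 0% in 3 lists and at 12.3% in KO male liver, and Nr1i3, which encodes the constitutive androstane receptor, was at 0% in 3 lists and at 99.5% in KO male liver. Hnf4a, a hepatocyte transcription factor, was at 0% in both control lists. Of these 10 genes 0 fell by 25 points or more in either sex, against 6.08% of all genes in males and 7.59% in females, and 4 rose in males and 2 in females, against 9.87% and 6.30%. Hnf4a and Nr0b2, which encodes the co-repressor SHP, rose in both sexes, and Cebpa and Nr1i3 in males. Within 100 kb of the cluster, the protein-coding neighbours Zfp655, Zfp498, Gm6309 and Rnf6 had no H3K27me3 region in any list.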

How the data were processed

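ChIP-seq lists of H3K27me3, H3K27ac and H3K4me1 from livers of 4 groups were used. The deposited lists hold start and end positions in mm9 and no counts. Before depositing them, the authors joined all paired-end reads (50 nt) of a group, aligned them by Bowtie2 2.3.2, and ran SICER 1.1 (400 bp window, 2400 bp gap) for H3K27me3 and MACS2 2.1.1 with default settings for the other marks. Starts were read as counted from 0 and printed from 1, and 1 base was added to SICER ends. Gene spans were the mm9 RefSeq spans of the study's tables. Exons, coding sequences and all other genes came from GENCODE M1 on NCBIM37, which is mm9 and contains every interval. Merging, overlap of at least 1 bp and coverage were computed in Python 3.11.15 with NumPy 2.4.6, and figures with matplotlib 3.10.9. Overlap and 50-nt counting were tested on simulated data. Identities are matches over columns of a global alignment.

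The members and lists were chosen with earlier results of these data known. All 8 members are named, with protein-coding neighbours within 100 kb of the cluster, Gjc3 and Azgp1 beside Cyp3a13 (chosen after their values were seen), the 3 genes nearest to Cyp3a16 by coverage in the 4 groups, and examples of the lists. Alternatives were annotation spans, the widest 50% of regions, equal numbers of the widest intervals, 50% of the span covered, spans extended by 3 kb, gene spans alone, unique bases alone, overlap with the span, 25 kb, promoter windows of 3 kb and 250 bp, and merging within 1 kb. No replicate could be left out and no test was possible, since each group and mark has 1 list.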

Additional observations from a re-analysis of the deposited data

Results flagged for a closer look

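At 3 genes, peak numbers within 10 kb changed in opposite directions in the sexes between control and KO liver, for 2 of 8 members in each mark, against 14.9% of all genes for H3K27ac and 15.1% for H3K4me1. Each is singled out because the 2 sexes moved apart, and the difference was not tested, since each group has 1 list. H3K27ac peaks near Cyp3a11 went from 1 to 2 in males and from 3 to 2 in females, so that the change in males exceeded that in females by 2 peaks. H3K27ac peaks near Cyp3a13 went from 2 to 4 in males and from 5 to 4 in females, a difference of 3 peaks between the changes. H3K4me1 peaks near Cyp3a16 went from 1 to 2 in males and from 3 to 2 in females, a difference of 2 peaks. H3K4me1 peaks near Cyp3a11 went from 3 to 2 in males and from 0 to 1 in females, so that the change in males minus that in females was -2 peaks. For H3K27ac the control male list was the shortest of the mark, and its part in these differences was not tested. With 29359 peaks per list the H3K27ac counts near Cyp3a13 were 2, 1, 2 and 2 in control male, KO male, control female and KO female liver, and near Cyp3a11 1, 1, 3 and 1. With 51417 peaks per list the H3K4me1 counts near Cyp3a16 were 1, 1, 3 and 2 and near Cyp3a11 1, 1, 0 and 1. At equal list length the sexes no longer moved in opposite directions in any of these 4 cases. The change in males minus that in females was then still 2 peaks for H3K27ac near Cyp3a11, -1 near Cyp3a13, and for H3K4me1 1 near Cyp3a16 and -1 near Cyp3a11. H3K27ac near Cyp3a25, with counts of 1, 3, 1 and 0, moved in opposite directions at equal list length alone.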

How the results depend on the processing

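No paired analysis was possible because each group and mark has 1 pooled list without replicate numbers, and no replicate could be left out. Of 128 recomputed values 81 stayed within 1.5 times the reported count, or within the 95% Wilson interval over 400 bp windows, and 47 did not. That interval served only as a tolerance. Neighbouring windows of 1 list are not independent, so it measures no spread between livers. In what follows values are in the order control male, KO male, control female and KO female unless groups are named. Numbers of Cyp3a genes with an H3K27me3 region held with annotation spans and with equal numbers of regions. They also held with spans extended by 3 kb and with 50% of the span covered. Coverage of the cluster stayed at 0% in both KO lists under each alternative run for it. These were annotation spans, equal numbers of regions, the widest 50% of regions, gene spans alone and unique bases alone. With the widest 50% of regions 1 gene was left in each control list (Cyp3a57) besides Cyp3a13 in each KO list, and the cluster was covered at 3.96% in male and 3.66% in female control liver. Coverage of the cluster was 22.7% and 21.1% over gene spans alone, 13.9% and 11.6% over unique bases, and 5.86% in control female liver with 15603 regions per list.

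H3K27ac counts depended on the window and on list length. Peaks numbered 2, 3, 7 and 7 when overlapping the span and 7, 20, 16 and 21 within 25 kb. Merging within 1 kb gave 3, 7, 6 and 10. With 29359 peaks per list there were 4, 5, 6 and 4, so that in females the difference from control turned from a higher to a lower count. Genes with a peak then numbered 3, 3, 3 and 3, and promoters 2, 3, 3 and 2. Genes with a peak in the span numbered 2, 2, 4 and 5. Promoters within 250 bp numbered 1, 1, 2 and 1.

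H3K4me1 peaks numbered 4, 2, 4 and 1 in the span and 15, 11, 11 and 10 within 25 kb, and with 51417 peaks per list 4, 2, 6 and 5. Genes with H3K4me1 numbered 2, 2, 3 and 1 in the span, 5 in each list within 25 kb and 4, 2, 3 and 3 at equal length. Promoters with H3K4me1 numbered 4, 2, 1 and 2 within 3 kb, 1, 0, 1 and 0 within 250 bp, and 2, 1, 1 and 2 at equal length.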

Other observations

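The KO female list held H3K27ac peaks in the stretch between the start of Cyp3a16 and the 3′ end of Cyp3a11 that both male lists lacked, all beyond 10 kb of the 8 genes. In all, this stretch had 0 H3K27ac peaks in control male, 0 in KO male, 2 in control female and 5 in KO female liver, 1 of the 2 being the peak within Cyp3a44. One of the 5 lay upstream of Cyp3a41b, 13519 to 13789 bp from its start (chr5:146359118-146359388), with an H3K4me1 peak of the same list over it. Another lay upstream of Cyp3a41a, 17718 to 18006 bp from its start (chr5:146549430-146549718), where 99.3% of 50-nt sequences were unique. Control female and KO female liver shared a site at chr5:146395609-146396057. The share of unique 50-nt sequences was 85.3% at this site and 100% at the peak upstream of Cyp3a41b. At the remaining KO female peaks it was 92.2% (chr5:146398220-146398526) and 58.3% (chr5:146403488-146403717). These peaks were chosen after their positions were seen. Those in the KO female list alone were 230 to 307 bp wide, where the median of that list was 404 bp. Neither counts at equal list length nor a share over the whole genome were computed for this stretch.

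Toward Cyp3a57, the KO female list also held a pair of H3K27ac peaks inside the control male H3K27me3 region beyond Cyp3a16, at chr5:146182970-146183236 and chr5:146183570-146183790. No other list had an H3K27ac or H3K4me1 peak at either place. The pair were 267 and 221 bp wide, also narrower than the list median of 404 bp.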
